A study of Mus musculus with 13 samples.

Results

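The molecular chaperones of the heat shock families were described in sympathetic ganglia of mice that carry a MYCN transgene and of wild-type mice. The members were all genes with a platform symbol of the Hspa, Hspb, Hsp90, Dnaja, Dnajb or Dnajc series or of the chaperonin subunits Cct2 to Cct8. Tcp1, Hspd1, Hspe1, Hsph1 and the heat shock factors were added, and Hspbap1 and Hspbp1 were left out. This gave 80 genes of the 21893 named genes on the array, measured by 117 probes. Hspa1b, Hsp90ab1 and Hsf1 were not matched to a symbol and were not analysed here. The study hybridised RNA of superior cervical and coeliac ganglia from mice aged 2 weeks to 1-colour Agilent arrays. In 6 samples the mice were TH-MYCN+/+, homozygous for human MYCN driven from a tyrosine hydroxylase promoter, which directs the transgene to catecholaminergic cells and makes this a model of neuroblastoma. The 7 wild-type samples came from age-matched littermates. Nothing in the labels tells whether the samples come from different animals, so the p-values cover sample-to-sample spread alone, and that spread may be technical.

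Chaperones bind unfolded stretches of other proteins and help them fold, assemble or be degraded. Hsp70 proteins work in cycles of ATP hydrolysis that J-domain proteins, the Dnaj families, set going and that exchange factors reset, and Hsp90 takes over part of their clients. Chaperonins enclose clients in a barrel, and small heat shock proteins hold unfolding proteins without ATP. In neurons, chaperones are known for work on vesicles and axons, and many of these genes are induced by heat shock factors under stress.

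The question the design poses is how the transgene changes gene expression in young ganglia. Values are normalized log2 intensities, called levels here, and differences are log2 fold changes of TH-MYCN+/+ minus wild type, with the base of the logarithm inferred from the range. A probe's level depends on its sequence, so levels are compared only between samples for the same probe. Genes were called where the adjusted p of a limma fit over all 21893 genes was under 0.05. Between 56.3% and 63.0% of the probes of an array lay above its background, and 71 of the 80 chaperone genes did so on all 13 arrays. All 7 measured markers of sympathetic neurons were above background on every array, which fits the labelled tissue, and the summed level of these markers was 17.11 to 17.96 in TH-MYCN+/+ against 18.76 to 19.14 in wild type, with 6 of the 7 lower and Gata3 higher. The summed level of 5 proliferation markers, of which Aurkb lay below background throughout, was 14.92 to 15.58 against 10.32 to 11.35. Of the markers of other cells, 5 of 6 for Schwann and satellite glia, 6 of 6 for fibroblasts, 5 of 6 for smooth muscle and 6 of 6 for endothelium fell. The other glial marker rose. Of 5 macrophage markers 2 rose and 2 fell, and of 6 skeletal muscle markers 1 rose and 1 fell. Of 6 adipocyte markers 4 fell, of 4 lymphoid markers 1 fell, and of 5 chromaffin and cortex markers 1 rose. These shifts run alongside every difference given here, their part in any of them was not tested, and fewer cells of a type cannot be told apart from less RNA per cell. A set of 4 arrays stood apart in markers of neighbouring tissue. TH-MYCN+/+ replicate 6 had a summed skeletal muscle level of 16.36 (11.1 to 13.1 on the other TH-MYCN+/+ arrays), and TH-MYCN+/+ replicate 2 an adipocyte level of 15.84 (13.49 to 14.56). Wild-type replicate 1 had a chromaffin and adrenal cortex level of 9.86 (7.28 to 7.95 on the other wild-type arrays), and wild-type replicate 3 a lymphoid level of 11.79 (8.56 to 9.17).

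Many promoters of these families are known to hold heat shock elements, inverted repeats of a short unit that heat shock factors bind. Promoters from RefSeq (GRCm38.p6) were matched for 66 of the 80 genes, and 250 bases before the start were searched on both strands. The following are shown because they carry the elements named here and belong to genes whose levels are described below. In the first 4, capitals mark heat shock elements of at least 2 units, GAANNTTC or TTCNNGAA, which overlap each other where more units follow. In Hspa5 they mark an endoplasmic reticulum stress element, CCAAT and CCACG separated by 9 bases of any kind, which also holds a CCAAT box, and in Hsf2 an E-box, CACGTG, the letters that proteins of the MYC family are known to bind.
Hspa1a, chr17:34972157-34972306, minus strand: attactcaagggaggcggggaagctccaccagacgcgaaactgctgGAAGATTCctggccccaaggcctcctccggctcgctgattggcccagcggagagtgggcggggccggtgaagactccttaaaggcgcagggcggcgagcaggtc
Hspb1, chr5:135887769-135887918, plus strand: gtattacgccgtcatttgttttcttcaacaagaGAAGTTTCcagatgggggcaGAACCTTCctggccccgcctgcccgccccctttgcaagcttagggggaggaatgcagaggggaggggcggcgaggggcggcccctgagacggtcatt
Dnajb6, chr5:29735798-29735897, plus strand: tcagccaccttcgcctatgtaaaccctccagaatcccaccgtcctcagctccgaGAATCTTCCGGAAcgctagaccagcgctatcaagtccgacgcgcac
Hspe1, chr1:55088051-55088080, plus strand: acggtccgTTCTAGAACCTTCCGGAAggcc
Hspa5, chr2:34771970-34772089, plus strand: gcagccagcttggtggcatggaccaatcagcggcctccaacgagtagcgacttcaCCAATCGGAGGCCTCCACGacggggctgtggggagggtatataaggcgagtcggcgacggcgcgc
Hsf2, chr10:57486265-57486384, plus strand: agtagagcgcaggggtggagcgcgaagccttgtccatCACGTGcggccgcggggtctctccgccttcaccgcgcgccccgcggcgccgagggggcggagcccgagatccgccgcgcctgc

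Many genes have several promoters listed, 85 for the 66 genes here, and the counts that follow use the first listed for each gene and then any listed promoter. In the first listed, elements of 2 units were found in 10 of the 66 genes (15.2%), against 12.9% of 27025 genes. With any listed promoter they were found in 15 (22.7%) against 14.5%. Elements of 3 units, in which GAANNTTC is followed by NNGAA or TTCNNGAA by NNTTC, stood in the first listed promoters of Hspe1 and Dnajb6 (3.03% against 0.4%), and also in a further promoter of Hspd1 (4.55% against 0.514% with any promoter). The Hspd1 stretch is the one printed for Hspe1, read on the opposite strand. With any listed promoter the same site is thus counted for both genes, also among elements of 2 units. The E-box stood in 5 first listed promoters (7.58%) against 6.05%, and in 6 genes (9.09%) against 6.86% with any. The stress element of the endoplasmic reticulum stood in 3, those of Hspa5, Hsp90b1 and Dnajc3, on either count (4.55%), against 0.122% of first listed promoters. An element of 2 units was held by 7 of 30 genes that fell and 1 of 13 that rose in the first listed promoter, and by 10 of 30 and 3 of 13 in any listed promoter. Of the 23 genes that were not called, 2 held one on either count. These counts describe letters in a window, and no binding was measured.

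Chaperone genes moved in both directions in TH-MYCN+/+ ganglia, and which direction was the more frequent depended on the scaling of the arrays, for chaperones as for all genes. After quantile normalization more fell than rose, whereas rises outnumbered falls in the deposited values (19 against 9) and with spike-in scaling (23 against 7). Of the 80 genes, 17 rose (21.2%) and 37 fell (46.2%), where 18.9% of all genes rose and 34.3% fell. Over all genes, 53.2% were called in either direction. The median difference was -0.19 for the 80 genes and -0.15 for all genes. Among the 71 chaperone genes above background on all arrays, 23.9% rose and 46.5% fell, against 25.1% and 44.5% of all 14243 genes that met the same condition. The ranges of the genotypes did not overlap for 35 of the 80 genes (43.8%, against 35.4% of all genes). Among genes above background on all arrays these shares were 47.9% of the 71 chaperone genes and 48.3% of all genes. A change of at least 1 on the log2 scale was rarer. It was met upward by Dnajc9 alone (7.95% of all genes), and downward by 11 chaperone genes, 13.8% against 15.0% of all genes. Among the class and place medians, small heat shock proteins and Dnaja genes were lowest and chaperones of the nucleus, ribosome and RNA processing highest. The lists were written with earlier results of these data known, so this order only describes them.

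**Figure D1:**
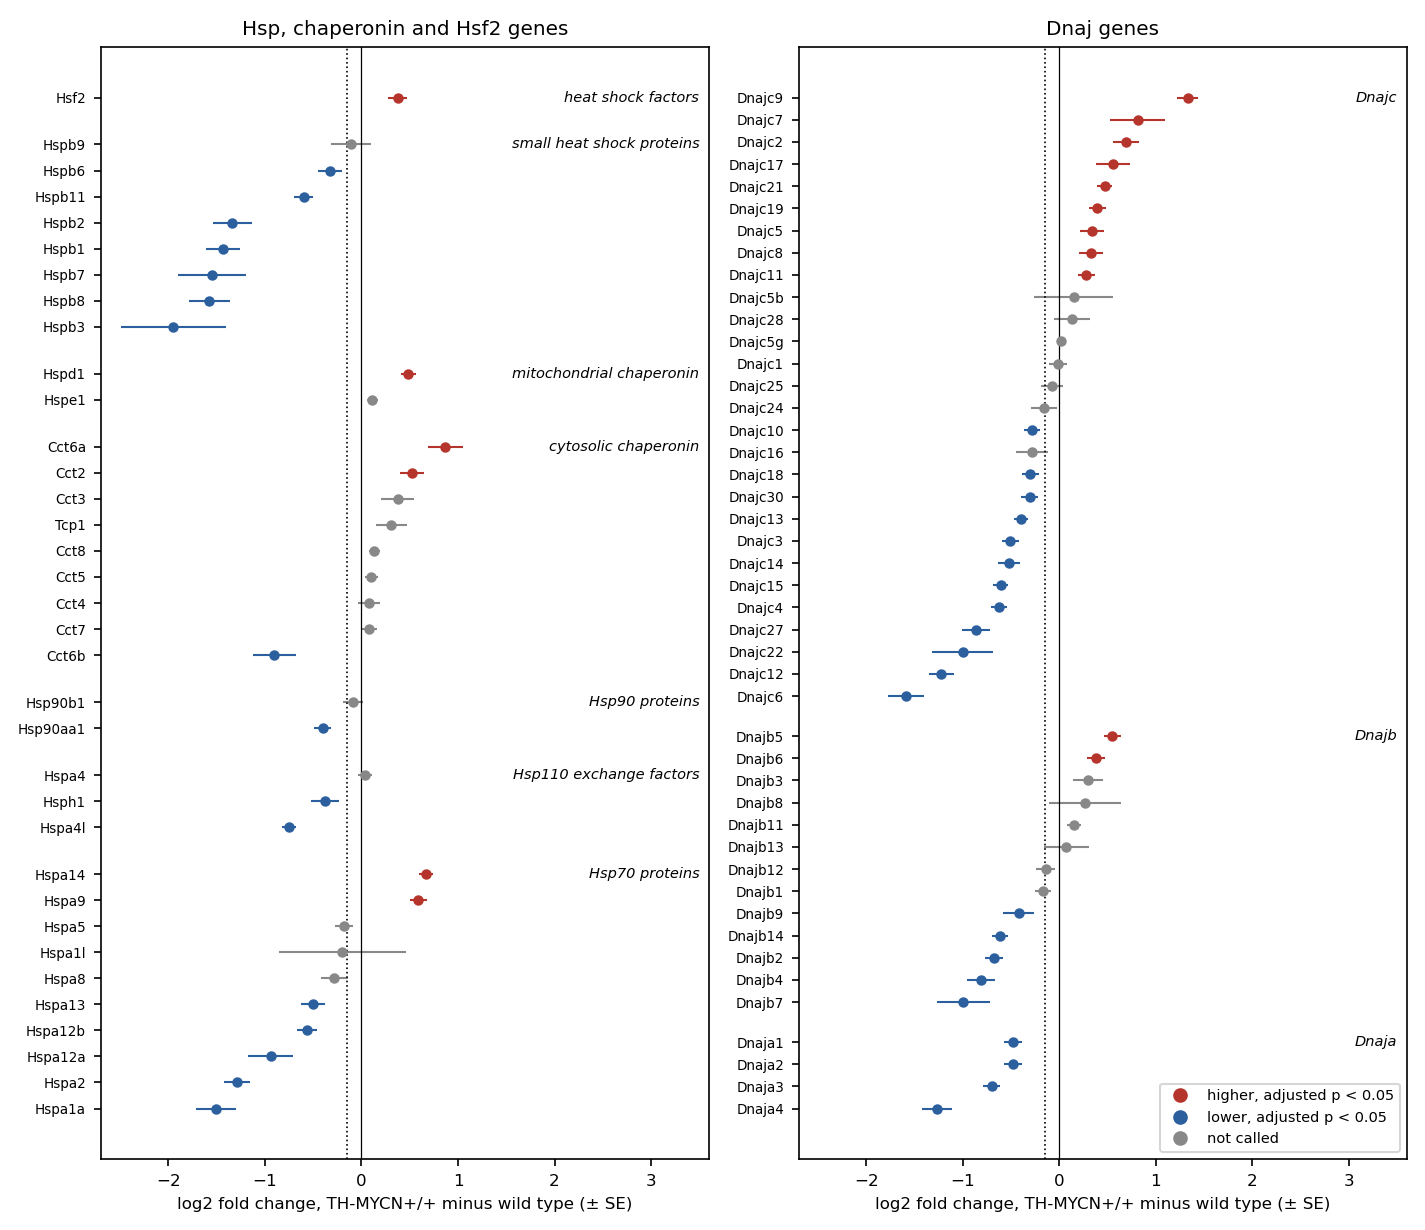
Log2 fold change of each of the 80 chaperone genes (x axis, TH-MYCN+/+ minus wild type, point ± SE) by class (y axis), with genes called higher in red, lower in blue and not called in grey. The dotted line is the median of all genes at -0.15. Dnajc9 lies at 1.33, and 5 of the 8 small heat shock protein genes lie below -1.

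The small heat shock proteins were the class with the lowest median, and none of the 8 rose. Hspb1, Hspb2, Hspb3, Hspb6, Hspb7, Hspb8 and Hspb11 fell and Hspb9 was not called, with a class median of -1.39. Those that fell were 87.5% of the class, beside 34.3% of all genes, and 18.9% of all genes rose. Hspb1 (Hsp27), which stabilises the cytoskeleton and is mutated in inherited human neuropathies, had levels from 10.26 to 11.63 (median 11.03) in the 6 TH-MYCN+/+ samples and from 12.23 to 12.78 (median 12.36) in the 7 wild-type samples. The genotypes did not overlap, and Hspb1 fell 2.70-fold (log2 fold change -1.44 ± 0.18 SE, adjusted p = 1.68e-05). Hspb8, which works with the cochaperone Bag3 in selective autophagy of misfolded proteins, had levels from 10.24 to 11.17 (median 10.88) against 12.05 to 13.14 (median 12.20). Again no TH-MYCN+/+ sample reached the lowest wild-type sample, and Hspb8 fell 2.98-fold (-1.57 ± 0.21 SE, adjusted p = 3.61e-05). Bag3 itself fell as well (-1.09, adjusted p = 2.65e-06).

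Hspb2, Hspb3, Hspb6 and Hspb7 are known mainly from heart and skeletal muscle. Hspb2 had levels from 7.54 to 8.87 (median 8.21) against 9.23 to 9.90 (median 9.47), without overlap (-1.34 ± 0.20 SE, adjusted p = 8.50e-05). Hspb3, a partner of Hspb2, had levels from 1.38 to 5.28 (median 2.70) against 4.08 to 5.40 (median 4.90), and its fitted change was -1.95 ± 0.54 SE (adjusted p = 0.008). Only 2 of the 6 TH-MYCN+/+ arrays had Hspb3 above background. The TH-MYCN+/+ sample that lay within the wild-type range of Hspb3 was replicate 6, the array with high skeletal muscle markers, which was also the highest TH-MYCN+/+ sample for Hspb2 (8.87) and Hspb6 (8.45). Hspb7 was above background on 3 of the 6 TH-MYCN+/+ arrays and its genotypes did not overlap (1.24 to 3.69, median 3.0, against 4.02 to 4.77, median 4.43), with a fitted change of -1.55 ± 0.35 SE (adjusted p = 0.00211). Without the 4 arrays that stood apart the changes of Hspb1, Hspb2, Hspb3, Hspb7 and Hspb8 were -1.48, -1.28, -2.26, -1.72 and -1.51, and all 5 were still called.

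The other members of the class moved less. Hspb6, found mainly in muscle, had levels from 7.69 to 8.45 (median 7.96) against 8.11 to 8.63 (median 8.26), and its small fall (-0.33 ± 0.13 SE, adjusted p = 0.0445) came with overlapping genotypes. The call of Hspb6 was lost without any of TH-MYCN+/+ replicates 1 to 5 or of wild-type replicates 1, 2, 4, 5 and 7 (adjusted p from 0.0505 to 0.104). Hspb11 carries the family name but is known as a subunit of intraflagellar transport in cilia. Its brighter probe fell (-0.60 ± 0.10 SE, adjusted p = 1.83e-04; 9.73 to 9.88, median 9.79, against 10.04 to 10.66, median 10.43), whereas its other probe, below background on every array, pointed upward (0.78). Hspb9, a testis member, had overlapping levels of 3.85 to 4.64 (median 4.0) and 3.62 to 4.84 (median 4.27) and was not called (-0.11, adjusted p = 0.682). The class median was negative under all 5 scalings of the arrays. However, the number of its genes that fell was 7 after median centring, 6 with the 75th percentile, 3 as deposited and 2 with spike-in scaling. Over all 21893 genes, 10714, 8610, 2746 and 1579 fell, in the same order.

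**Figure D2:**
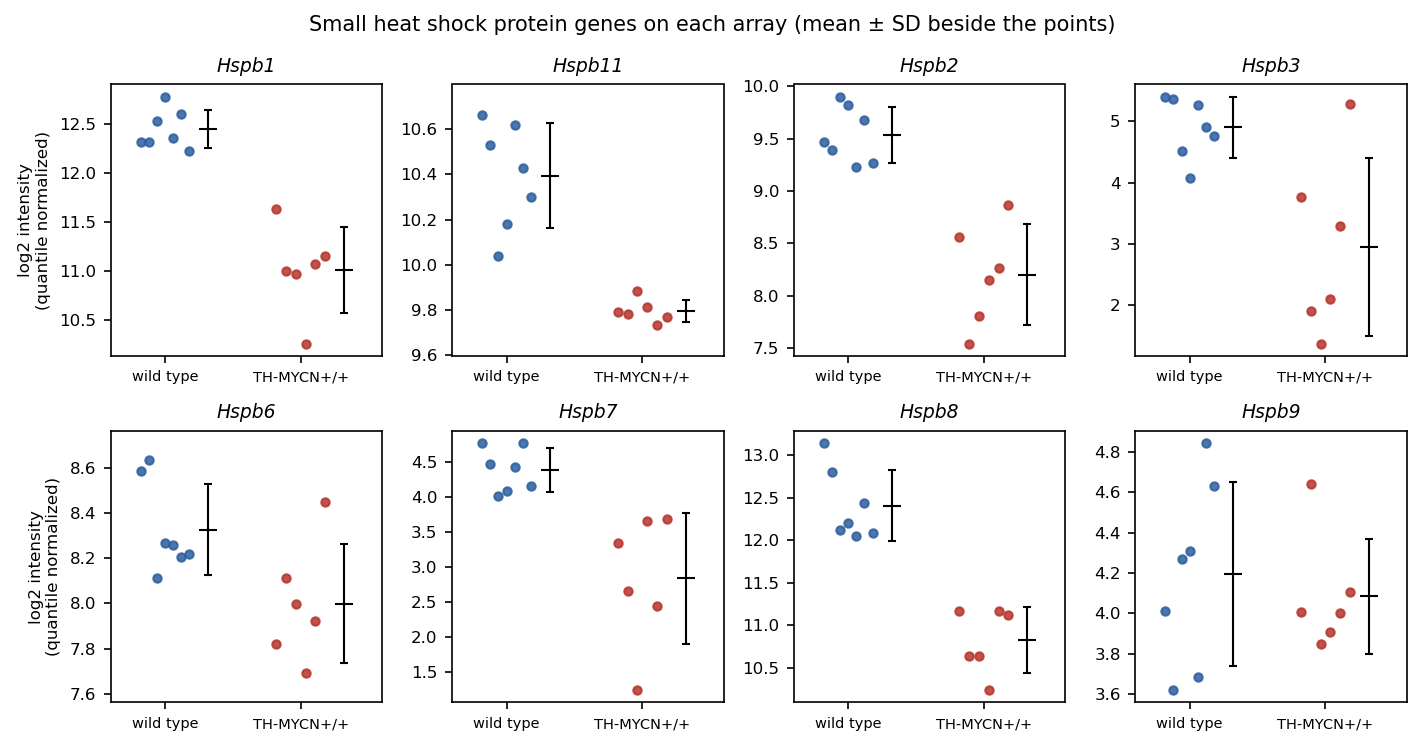
Levels of the 8 small heat shock protein genes (y axis, normalized log2 intensity, own scale for each gene) in the 7 wild-type samples in blue and the 6 TH-MYCN+/+ samples in red, with mean ± SD as bars beside the points. For Hspb1, Hspb2, Hspb7, Hspb8 and Hspb11 the genotypes are separate, and the highest TH-MYCN+/+ sample of Hspb3 lies at 5.28.

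Among the 10 measured Hsp70 genes, 2 rose (20%) and 5 fell (50%), beside 18.9% and 34.3% of all genes, with a median of -0.39. The genes that rose serve the ribosome and the mitochondrion, and the abundant Hspa8 of the cytosol and Hspa5 of the endoplasmic reticulum were not called. Hspa14, which sits on the ribosome with Dnajc2 and meets nascent chains, had levels from 12.34 to 12.55 (median 12.38) in TH-MYCN+/+ and from 11.56 to 11.86 (median 11.76) in wild type. These ranges lay clearly apart, and Hspa14 rose 1.59-fold (0.67 ± 0.07 SE, adjusted p = 4.82e-06). Hspa9 (mortalin), the mitochondrial Hsp70 of protein import, rose from 12.00 to 12.39 (median 12.13) in wild type to 12.54 to 13.05 (median 12.71), without overlap (0.59 ± 0.09 SE, adjusted p = 9.49e-05).

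The 5 Hsp70 genes that fell were Hspa1a, Hspa2, Hspa12a, Hspa12b and Hspa13. Hspa1a, the classical heat-induced Hsp70, had levels from 3.86 to 4.96 (median 4.65) against 5.68 to 6.61 (median 5.98). The genotypes did not overlap, and Hspa1a fell 2.84-fold (-1.5 ± 0.20 SE, adjusted p = 3.68e-05). Hspa1b is a near-identical neighbour of Hspa1a, and RNA of the 2 genes cannot be told apart here. Hspa2, known best from testis, had levels from 9.22 to 10.18 (median 9.90) against a tight 10.96 to 11.25 (median 11.12), and fell 2.45-fold (-1.29 ± 0.13 SE, adjusted p = 4.67e-06). The atypical Hsp70 genes Hspa12a and Hspa12b also fell. Hspa12a had levels from 6.84 to 7.49 (median 7.31) against 7.38 to 8.68 (median 8.40), where wild-type replicates 1 and 2 lay within or near the TH-MYCN+/+ range (-0.94 ± 0.23 SE, adjusted p = 0.00396). Hspa12b, known from endothelium, had levels from 8.41 to 8.88 (median 8.56) against 8.86 to 9.38 (median 9.10), with overlap at the edge (-0.56 ± 0.10 SE, adjusted p = 4.09e-04). Hspa13, an Hsp70 of microsomes, had levels from 9.58 to 10.20 (median 10.07) against 10.26 to 10.76 (median 10.56), without overlap (-0.50 ± 0.12 SE, adjusted p = 0.00332).

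Hspa8 and Hspa5, the workhorses of the cytosol and the endoplasmic reticulum, were not called. Hspa8 had levels from 16.40 to 16.83 (median 16.58) against 16.45 to 17.18 (median 17.05) for its brightest probe (-0.28 ± 0.14 SE, adjusted p = 0.113). Its other probes differed by -0.81 and -0.64 and passed an adjustment over probes, and the gene was called without wild-type replicate 1 (adjusted p = 0.048) or replicate 2 (adjusted p = 0.036). Hspa5 (BiP) had levels from 13.88 to 14.37 (median 14.17) against 14.14 to 14.54 (median 14.39), which overlap (-0.18 ± 0.09 SE, adjusted p = 0.121). Hspa1l, a testis member, was above background on 2 of the 6 TH-MYCN+/+ arrays, lay between 2.45 and 3.59 on 5 of them and reached 7.29 in replicate 3, against 3.5 to 4.61 in wild type. Hspa1l was not called over all arrays (-0.20, adjusted p = 0.826) and fell without TH-MYCN+/+ replicate 3 (-0.92, adjusted p = 0.0052). With spike-in scaling or as deposited 2 of the 10 Hsp70 genes rose and 2 fell, and the class median was then positive (0.19 and 0.03).

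The Hsp110 proteins, large relatives of Hsp70 that act as its exchange factors, split by gene. Hspa4l, which is abundant in testis, had levels from 11 to 11.43 (median 11.29) against 11.95 to 12.11 (median 12.01). The wild-type samples lay closely together above all TH-MYCN+/+ samples, and Hspa4l fell 1.68-fold (-0.75 ± 0.07 SE, adjusted p = 2.83e-06). Hspa4, its closest relative, had almost the same levels in both genotypes, 11.85 to 12.20 (median 12.07) and 11.82 to 12.17 (median 12.03), and was not called (0.03 ± 0.07 SE, adjusted p = 0.718). Hsph1, the heat-inducible member, had levels from 11.86 to 12.57 (median 12.33) against 12.42 to 13 (median 12.55) and fell by a margin that overlapped (-0.38 ± 0.14 SE, adjusted p = 0.0416). A second Hsph1 probe, above background on all 13 arrays, differed by -0.15, and neither probe passed an adjustment over probes. The call of Hsph1 was lost without TH-MYCN+/+ replicate 1, 2 or 5 or wild-type replicate 1, 2, 5 or 6 (adjusted p from 0.0523 to 0.0974). No Hsp110 gene was called with spike-in scaling, where the class median was 0.08, or as deposited, where it was -0.08.

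Of the Hsp90 genes, the cytosolic Hsp90aa1 fell and Hsp90b1 of the endoplasmic reticulum was not called. Hsp90aa1, the stress-inducible isoform, had levels from 15.13 to 15.38 (median 15.21) against 15.37 to 15.88 (median 15.67). Only the highest TH-MYCN+/+ sample lay above the lowest wild-type sample (-0.40 ± 0.09 SE, adjusted p = 0.00147), but the difference turned positive with spike-in scaling (0.32) and as deposited (0.16), neither of them called. Hsp90b1 (Grp94) had levels from 14.00 to 14.60 (median 14.08) against 14.08 to 14.47 (median 14.28), with overlap (-0.09 ± 0.10 SE, adjusted p = 0.497). Among 21 measured cochaperones of Hsp90, 8 rose (38.1%) and 6 fell (28.6%), beside 18.9% and 34.3% of all genes. Ruvbl2 (1.29 ± 0.10 SE, adjusted p = 5.29e-07) and Ttc4 (0.40 ± 0.06 SE, adjusted p = 1.12e-04) had the smallest p of those that rose, Ruvbl2 being an ATPase that assembles large complexes with Hsp90 and also acts in chromatin. Stip1, which hands clients from Hsp70 to Hsp90, rose (0.55, adjusted p = 4.15e-04), as did Fkbp4, an immunophilin of steroid receptor complexes (0.49, adjusted p = 0.00235). Sugt1 (-0.64, adjusted p = 1.17e-05) and Cdc37, which brings kinases to Hsp90 (-0.57, adjusted p = 1.60e-05), fell.

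Chaperonin subunits tended upward, but few were called. Of the 9 cytosolic chaperonin genes, whose ring folds actin and tubulin, Cct2 and Cct6a rose, Cct6b fell and 6 were not called. Cct6a had levels from 10.35 to 11.29 (median 10.88) in TH-MYCN+/+ and from 9.55 to 10.35 (median 9.96) in wild type. The lowest TH-MYCN+/+ sample stood at the level of the highest wild-type sample, and Cct6a rose 1.82-fold (0.87 ± 0.18 SE, adjusted p = 0.0012). Cct6b, an isoform of the same subunit known from testis, moved the other way, from 5.02 to 6.44 (median 5.73) in wild type to 4.55 to 4.995 (median 4.88), without overlap (-0.90 ± 0.22 SE, adjusted p = 0.00346). Cct2 had levels from 14.12 to 14.66 (median 14.42) against 13.59 to 14.19 (median 13.93). Only TH-MYCN+/+ replicate 1 lay within the wild-type range of Cct2 (0.53 ± 0.12 SE, adjusted p = 0.00265).

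The other chaperonin genes had positive differences that did not pass the test. Cct3 differed by 0.37 ± 0.17 SE (adjusted p = 0.0851; 11.37 to 11.90, median 11.82, against 10.97 to 11.93, median 11.14) and Tcp1 by 0.31 ± 0.16 SE (adjusted p = 0.125; 11.79 to 12.48, median 12.31, against 11.51 to 12.46, median 11.79). Wild-type replicates 1 and 2 were the highest wild-type samples for both genes, and Cct3 was called without replicate 1 (adjusted p = 0.0176) or replicate 2 (adjusted p = 0.0347), Tcp1 without replicate 1 (adjusted p = 0.0318). Cct8 differed by 0.14 ± 0.06 SE (12.50 to 12.76, median 12.69, against 12.44 to 12.57, median 12.51) and was called without TH-MYCN+/+ replicate 1 (adjusted p = 0.0273) or replicate 2 (adjusted p = 0.0375). Cct4, Cct5 and Cct7 differed by 0.08, 0.10 and 0.08, with overlapping levels of 12.20 to 12.55 against 11.94 to 12.67, 14.16 to 14.48 against 14.11 to 14.36, and 14.19 to 14.47 against 13.96 to 14.40. Without Cct6b, the median of the 8 subunits was 0.22. The number of cytosolic chaperonin genes that rose was 1 after median centring, where the class median was slightly negative (-0.06), 2 with the 75th percentile, 3 as deposited and 6 with spike-in scaling.

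In the mitochondrial chaperonin, Hspd1 (Hsp60) rose and its lid Hspe1 (Hsp10) did not pass. Hspd1 had levels from 14.09 to 14.44 (median 14.17) against 13.58 to 13.87 (median 13.68), without overlap (0.49 ± 0.08 SE, adjusted p = 1.05e-04). Hspe1 had levels from 12.89 to 13.11 (median 13) against 12.82 to 12.94 (median 12.88), a narrow band in both genotypes (0.11 ± 0.05 SE, adjusted p = 0.0931). The other Hspe1 probes differed by 0.24 and 1.35. Hspd1 and Hspe1 are neighbours on chromosome 1 on opposite strands, with starts 215 bases apart for their divergent pair of transcripts. Among 15 prefoldin, phosducin-like and tubulin cofactor genes, which pass clients to the chaperonin or work on tubulin after it, 1 rose and 6 fell. These shares, 6.67% and 40%, compare with 25.1% and 44.5% of all genes above background on all arrays, as these 15 were. Pfdn6, a prefoldin subunit, rose (0.20, adjusted p = 0.0349), whereas Pdcl, a helper of G protein assembly (-0.54, adjusted p = 3.44e-06), and Tbcd, a tubulin cofactor (-0.81, adjusted p = 9.14e-06), fell.

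**Figure D3:**
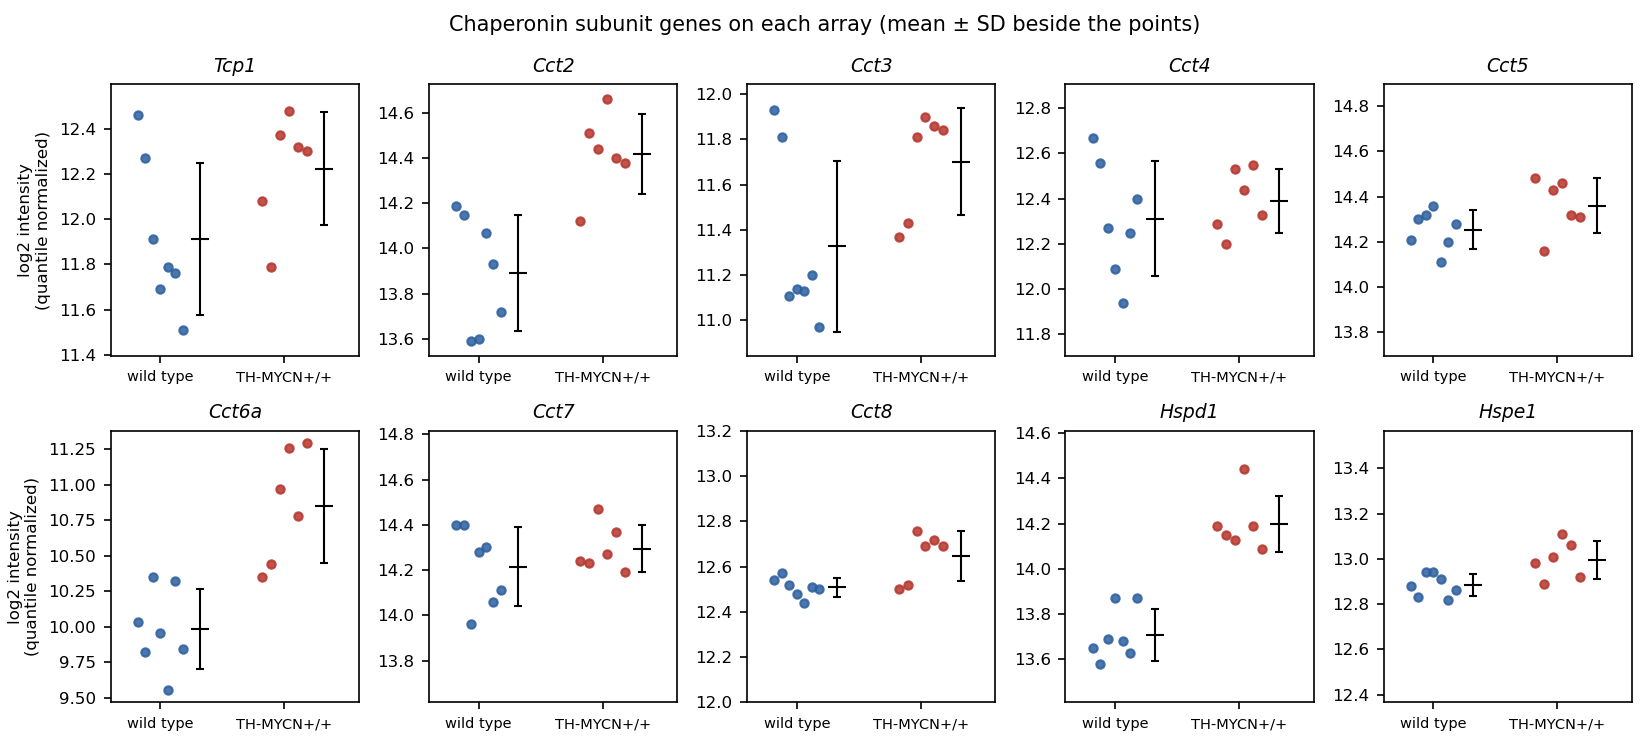
Levels of the cytosolic chaperonin genes other than Cct6b and of the mitochondrial Hspd1 and Hspe1 (y axis, normalized log2 intensity, own scale for each gene) in the 7 wild-type samples in blue and the 6 TH-MYCN+/+ samples in red, with mean ± SD as bars. Hspd1 is separate between genotypes, at 14.09 or more against 13.87 or less, while Cct4, Cct5 and Cct7 overlap.

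All 6 chaperones listed for the nucleus, the ribosome and RNA processing rose, with a median of 0.61. These are Hspa14, described above, and Dnajc9, Dnajc2, Dnajc21, Dnajc17 and Dnajc8. The genes were put in this list with earlier results of these data known. Of all genes above background on all arrays, as these 6 were, 25.1% rose and 44.5% fell. Dnajc9, a J-domain protein that handles histones H3 and H4, had levels from 12.61 to 13.02 (median 12.83) in TH-MYCN+/+ and from 11.11 to 11.72 (median 11.51) in wild type. A wide gap separated the genotypes, and Dnajc9 rose 2.51-fold (1.33 ± 0.10 SE, adjusted p = 5.40e-07). Dnajc2, the ribosome-bound partner of Hspa14, had levels from 9.63 to 10.26 (median 9.96) against 8.95 to 9.57 (median 9.17), and rose 1.61-fold without overlap (0.69 ± 0.13 SE, adjusted p = 5.81e-04). Dnajc21, a maturation factor of the large ribosomal subunit, had levels from 9.10 to 9.55 (median 9.40) against 8.77 to 9.04 (median 8.90), also without overlap (0.47 ± 0.08 SE, adjusted p = 1.83e-04), and its other probes differed by 0.81 and 1.09.

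Dnajc17 and Dnajc8, both associated with the spliceosome, rose less firmly. Dnajc17 had levels from 8.16 to 9.13 (median 8.82) against 7.86 to 8.67 (median 8.06), overlapping, with TH-MYCN+/+ replicate 1 the lowest of its group (0.55 ± 0.18 SE, adjusted p = 0.0172). Dnajc8 had levels from 10.49 to 11.24 (median 10.93) against 10.31 to 10.82 (median 10.68), overlapped, and was close to the threshold (0.33 ± 0.13 SE, adjusted p = 0.0412). The other Dnajc8 probes, above background on all 13 arrays, differed by only 0.08 and 0.17 and did not pass an adjustment over probes. The call of Dnajc8 was lost without any of TH-MYCN+/+ replicates 2 to 6 or wild-type replicates 3, 4 or 7 (adjusted p from 0.055 to 0.0966). Of these 6 genes, 6 rose with spike-in scaling, 5 as deposited, 5 with the 75th percentile, 3 after median centring and 4 without the 4 arrays that stood apart. With the mean of all probes 5 rose, and with the probe of largest variance 4. The list median was positive in each case. The 4 proliferation markers that rose did so by at least 4.19, and their part in the rise of these chaperones was not tested.

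Other J-domain genes that rose are spread over several compartments. Dnajb5, a cytosolic member related to Dnajb1, had levels from 11.21 to 11.57 (median 11.35) against 10.57 to 11.09 (median 10.83), without overlap (0.55 ± 0.09 SE, adjusted p = 1.21e-04). A second, dimmer probe of Dnajb5, above background on 2 arrays, differed by -0.09. Dnajb6, which suppresses aggregation of polyglutamine proteins and whose promoter is printed above, had levels from 11.10 to 11.47 (median 11.26) against 10.57 to 11.11 (median 10.92), with overlap at the edge (0.38 ± 0.09 SE, adjusted p = 0.00315). The other Dnajb6 probes, above background on all 13 arrays, differed by 0.16, 0.35 and 0.33 and did not pass an adjustment over probes. Dnajc7, which binds both Hsp70 and Hsp90, had levels from 13.61 to 14.08 (median 13.84) against 11.48 to 13.59 (median 13.17). The genotypes touched without overlap, but wild-type replicate 2 lay far below the other wild-type samples (0.81 ± 0.29 SE, adjusted p = 0.0297). The call of Dnajc7 was lost without TH-MYCN+/+ replicate 1, 2 or 4 or wild-type replicate 1 (adjusted p from 0.0509 to 0.0615).

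**Figure D4:**
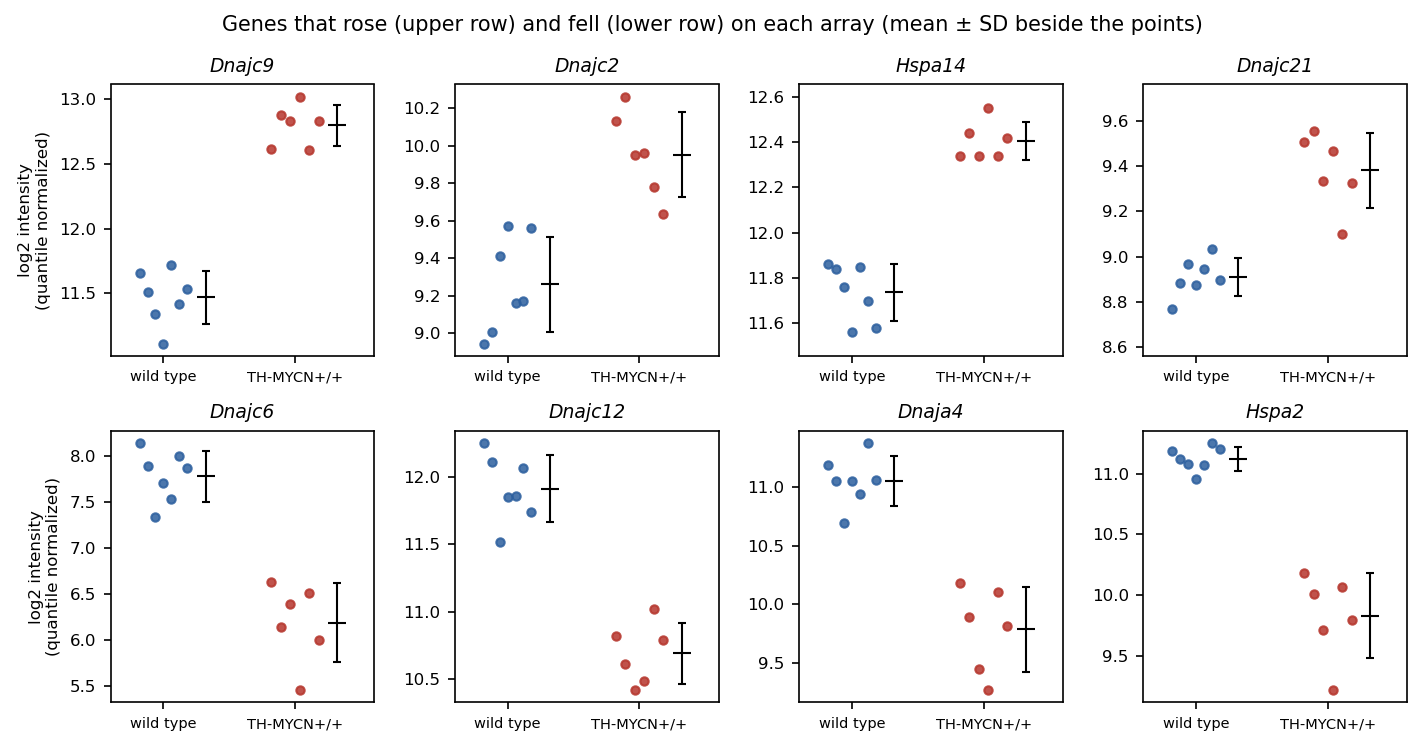
Levels of 4 genes that rose (Dnajc9, Dnajc2, Hspa14 and Dnajc21, upper row) and 4 that fell (Dnajc6, Dnajc12, Dnaja4 and Hspa2, lower row) on the y axis as normalized log2 intensity, own scale for each gene, in the 7 wild-type samples in blue and the 6 TH-MYCN+/+ samples in red, with mean ± SD as bars. In none of the 8 panels do the genotypes overlap.

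All 4 Dnaja genes fell, with a median of -0.59 and no overlap between genotypes in any of them. Of all genes above background on all arrays, as these 4 were, 44.5% fell, and the genotypes did not overlap for 48.3%. Dnaja4 had levels from 9.27 to 10.18 (median 9.85) against 10.69 to 11.37 (median 11.05), and fell 2.40-fold (-1.26 ± 0.15 SE, adjusted p = 1.59e-05). Dnaja3 (Tid1), a mitochondrial J-domain protein, had levels from 11.22 to 11.40 (median 11.31) against 11.77 to 12.26 (median 11.97), and fell 1.62-fold (-0.70 ± 0.09 SE, adjusted p = 1.68e-05). By their brightest probes, Dnaja1 and Dnaja2, the general cytosolic partners of Hspa8, moved least. Dnaja1 moved by -0.48 (14.11 to 14.25, median 14.19, against 14.42 to 14.92, median 14.70) and Dnaja2 by -0.48 (11.01 to 11.24, median 11.17, against 11.33 to 11.91, median 11.67). In both, the wild-type samples were more spread than the TH-MYCN+/+ samples. The other Dnaja1 probe differed by -0.96 and passed an adjustment over probes, whereas the other Dnaja2 probe differed by -0.20 and did not. Both of these probes lay above background on all 13 arrays. With spike-in scaling or as deposited Dnaja4 was the only one of the 4 that fell, and Dnaja1 turned positive with spike-in scaling (0.12, not called), while the class median stayed negative under each scaling.

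Of the 5 genes listed for synaptic and clathrin-coated vesicles, 1 rose (20%), 2 fell (40%) and 2 were not called, beside 18.9% and 34.3% of all genes. The median of the 5 genes, 0.02, was the value of Dnajc5g, which lay below background on every array. For the 3 genes above background on 6 or more arrays the median was -0.40. Dnajc6 (auxilin), the neuronal factor that uncoats clathrin-coated vesicles with Hspa8, had levels from 5.46 to 6.63 (median 6.27) against 7.33 to 8.13 (median 7.86). No sample of either genotype came near the other group, and Dnajc6 fell 3.01-fold (-1.59 ± 0.19 SE, adjusted p = 1.23e-05). Gak, its broadly expressed relative, fell by 0.49 on the log2 scale (adjusted p = 3.29e-05). Outside this list, Dnajc12, which in humans is known to assist the aromatic amino acid hydroxylases, tyrosine hydroxylase among them, had levels from 10.42 to 11.02 (median 10.70) against 11.52 to 12.25 (median 11.86). The genotypes lay apart, and Dnajc12 fell 2.33-fold (-1.22 ± 0.13 SE, adjusted p = 5.92e-06). Th, the gene of tyrosine hydroxylase, fell by 1.76 on the log2 scale (adjusted p = 2.43e-06). Dnajc5 (cysteine string protein), the chaperone of synaptic vesicles, went the other way, with 15.39 to 15.54 (median 15.44) against 14.60 to 15.35 (median 15.25) and a small rise for its brightest probe (0.34 ± 0.12 SE, adjusted p = 0.0361). The other Dnajc5 probes disagreed (-0.23, -0.38 and 0.62), and the call was lost without any TH-MYCN+/+ replicate or wild-type replicate 2 or 6 (adjusted p from 0.0501 to 0.0692). Dnajc13, an endosomal protein, fell (-0.40, adjusted p = 4.62e-04), with a positive difference as deposited (0.04) and with spike-in scaling (0.20), neither called. Dnajc5b and Dnajc5g of the vesicle list did not rise above background on any array.

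The other Dnajb and Dnajc genes are given by counts. In all, 2 of 13 Dnajb genes rose and 5 fell, with a median of -0.14, and 9 of 28 Dnajc genes rose and 12 fell, with a median of -0.12, beside a median of -0.15 for all genes. These shares were 15.4% and 38.5% for Dnajb and 32.1% and 42.9% for Dnajc, beside 18.9% and 34.3% of all genes. This balance turned with the scaling, from 0 Dnajb genes higher and 6 lower and 4 Dnajc genes higher and 13 lower after median centring to 3 and 0, and 10 and 2, with spike-in scaling. Dnajb2, a neuronal cochaperone that delivers clients to the proteasome, fell by 0.68 on the log2 scale, Dnajb4 by 0.81 and Dnajc27 by 0.86, each without overlap. Dnajb1, the classical Hsp40, was not called (-0.17, adjusted p = 0.11), though it was without wild-type replicate 3 (-0.22, adjusted p = 0.0144). Dnajb7 and Dnajc22 were called lower but rose above background on only 1 of the 7 wild-type arrays and on no TH-MYCN+/+ array, so no fold is given. Dnajb8 and Dnajb13, known from testis, lay below background on all arrays.

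Chaperones of the endoplasmic reticulum fell or did not pass the test. Of 11 such genes none rose and 6 fell (54.5%), with a median of -0.28. All 11 were above background on all arrays, and of all genes that met this condition 25.1% rose and 44.5% fell. Dnajb14, a membrane J-domain protein, fell by 0.61 (10.56 to 11.04, median 10.81, against 11.26 to 11.50, median 11.40) and Dnajc3, an inhibitor of the stress kinase Eif2ak3, by 0.51 (8.70 to 9.14, median 9.08, against 9.35 to 9.68, median 9.55), both without overlap. Hspa13, Dnajb9, Dnajc10 and Dnajc18 fell by 0.50, 0.42, 0.28 and 0.30, of which Dnajb9 lost its call without any of TH-MYCN+/+ replicates 1, 2, 3, 5 and 6 or wild-type replicates 1, 2, 5 and 6 (adjusted p from 0.0547 to 0.0901). Hspa5, Hsp90b1, Dnajb11, Dnajb12 and Dnajc1 were not called, with differences from -0.18 to 0.15. Dnajb11, the abundant cofactor of BiP, had the highest of these (0.15, adjusted p = 0.0904) and was called without TH-MYCN+/+ replicate 2 (adjusted p = 0.0398) or wild-type replicate 2 (adjusted p = 0.0473). None of the 11 genes was called in either direction with spike-in scaling or as deposited, and their median was then positive (0.27 and 0.11). Of 22 further genes of folding and the unfolded protein response in this compartment, 3 rose (13.6%) and 9 fell (40.9%). All 22 were above background on all arrays as well. Creld2, a stress-induced secretory factor (0.70, adjusted p = 1.43e-04), and Eif2ak3, the kinase PERK (0.62, adjusted p = 8.02e-04), rose, whereas the lectin chaperone Canx (-0.90, adjusted p = 1.64e-05) and the disulphide isomerase Pdia3 (-0.53, adjusted p = 2.64e-04) fell.

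Mitochondrial chaperones moved in both directions. Of 8 genes, 4 rose (50%) and 3 fell (37.5%), with a median of 0.20. Of all genes above background on all arrays, as these 8 were, 25.1% rose and 44.5% fell. After median centring 0 of the 8 rose and 3 fell, with a median of -0.01. With spike-in scaling or as deposited 4 of the 8 rose and 0 fell. Hspa9 and Hspd1 rose as given above, as did Dnajc19, a J-domain protein of the import motor (0.39 ± 0.09 SE, adjusted p = 0.0019), and Dnajc11, which is tied to cristae (0.28 ± 0.09 SE, adjusted p = 0.0172). Dnajc19 had levels from 10.62 to 11.15 (median 10.98) against 10.35 to 10.70 (median 10.54), with TH-MYCN+/+ replicate 3 within the wild-type range. Dnajc15, a relative of Dnajc19 in import, fell (-0.61 ± 0.08 SE, adjusted p = 2.30e-05), with 12.41 to 12.62 (median 12.53) against 12.91 to 13.29 (median 13.13) and no overlap. Dnaja3 and Dnajc30 fell (-0.70 and -0.31). Dnajc30 turned positive as deposited (0.01) and with spike-in scaling (0.17), without a call. Dnajc11 was not called without the 4 arrays that stood apart (adjusted p = 0.11).

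Of the heat shock factors, Hsf2 rose. Hsf2, a transcription factor known from development and differentiation as well as stress, had levels from 10.29 to 10.69 (median 10.53) against 9.91 to 10.44 (median 10.23), with overlap (0.37 ± 0.10 SE, adjusted p = 0.00719). After median centring and with the 75th percentile Hsf2 was not called (0.12 and 0.26). Among 19 measured cochaperones and exchange factors of Hsp70, 4 rose (21.1%) and 7 fell (36.8%). Of all genes above background on all arrays, as these 19 were, 25.1% rose and 44.5% fell. Bag6, a chaperone of tail-anchored proteins (0.52, adjusted p = 0.00196), and St13, an Hsp70 adaptor (0.30, adjusted p = 0.00803), rose, Bag3 and Bag1 (-0.65, adjusted p = 3.15e-05), both exchange factors, fell, and Hyou1 of the endoplasmic reticulum was not called (0.10, adjusted p = 0.711). Of 12 other stress genes 1 rose (8.33%) and 5 fell (41.7%), beside 18.9% and 34.3% of all genes. Lonp1, a protease of the mitochondrial matrix, rose (0.26, adjusted p = 0.00739). Cryab, a crystallin of the small heat shock protein family (-1.53, adjusted p = 7.93e-07), Serpinh1, the collagen chaperone (-1.36, adjusted p = 3.63e-05), and Hsf4, a heat shock factor (-1.51, adjusted p = 6.96e-05), fell. The summed level of fibroblast markers was 16.00 to 16.81 against 17.97 to 18.29, and its part in the fall of Serpinh1 was not tested.

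Because a scaling factor of an array cancels in the ratio of probes on it, related chaperones were also set against each other within arrays, without a test. The ratio of Dnajc6 to Dnajc5 shifted by -1.93 on the log2 scale (TH-MYCN+/+ minus wild type). That of Cct6b to Cct6a shifted by -1.77 and that of Dnajb2 to Dnajb6 by -1.06. Shifts of -0.79 were seen for Hspa4l against Hspa4 and for Dnaja4 against Dnaja1. In each of these pairs the genotypes did not overlap. Hsph1 against Hspa4 shifted by -0.41 and Hspa12b against Hspa12a by 0.38, both with overlap. Hspd1 against Hspe1 shifted by 0.37 without overlap, but this sign changed with the mean of all probes (-0.08) and with the probe of largest variance (-0.86).

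The scaling of the arrays set the balance of rises and falls, for chaperones as for all genes. Of the calls among the 80 genes, 31.5% were rises after quantile normalization, 12.8% after median centring, 28% with the 75th percentile, 67.9% as deposited and 76.7% with spike-in scaling. Over all genes these shares were 35.5%, 22.0%, 31.0%, 66.8% and 78.2%, and the median of all genes lay at -0.15, -0.44, -0.30, 0.15 and 0.30. Under all 5 scalings Cct6a, Dnajc2, Dnajc5, Dnajc7, Dnajc9 and Hspa14 rose, and Dnaja4, Dnajc12, Dnajc6, Hspa1a, Hspa2, Hspb1 and Hspb8 fell. The other 4 scalings differ from each other only by a constant for each array, so a group's median relative to the median gene is the same in all 4 by construction, and only quantile normalization can be compared with them. The small heat shock proteins lay at -1.24 after quantile normalization and -1.09 with the others, the Dnaja genes at -0.44 and -0.43, the cytosolic chaperonin at 0.29 and 0.38, and the nuclear and ribosomal chaperones at 0.76 and 0.82.

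**Figure D5:**
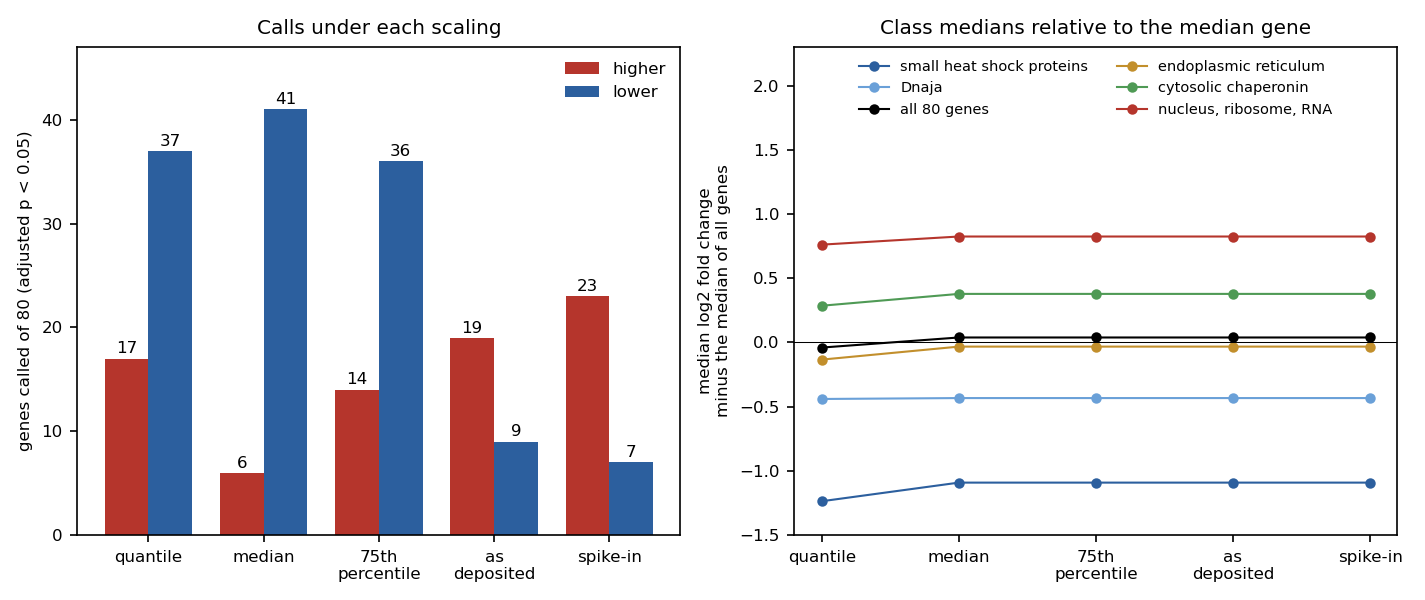
Left, number of the 80 chaperone genes called higher (red) and lower (blue) under each of 5 scalings of the arrays, from 17 and 37 after quantile normalization to 23 and 7 with spike-in scaling. Right, median log2 fold change of 5 groups and of all 80 genes minus the median of all genes (y axis) under the same scalings. The last 4 scalings give equal values here by construction, so only quantile normalization is a comparison, with the small heat shock proteins at -1.24 against -1.09 and the nuclear and ribosomal group at 0.76 against 0.82.

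The spread between samples of a genotype differed among the chaperones. Hspe1 (pooled SD 0.07), Cct8 (0.08) and Hspa14 (0.11) were among the steadiest, at the percentiles 0.246, 0.723 and 4.46 of the genes above background on all arrays. Dnajc7 (pooled SD 0.55) lay at percentile 94.8. Hspa12a (0.44), Cct6b (0.42) and Hspb8 (0.40) also varied more than most.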

How the data were processed

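Total RNA from an RNeasy kit was Cy3-labelled, per the labels' protocols. The authors deposited 1 table of log2 intensities, whose base was inferred from the range. Array medians ran from 3.94 to 5.07, so arrays had not been aligned on their medians or quantiles, and another scaling by the authors was not tested. The sources used here do not give the scanner, background correction or probe averaging. The table holds 55821 probes, of which 140 are controls. Symbols came from the platform annotation, 1 for 30626 array probes and none for 25055. Where a gene had several probes (6807 of 21893 genes, 27 of the 80 chaperones), the one with the highest mean stood for it.

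Array probes were quantile normalized, with no filter on intensity. Genotypes were compared with limma 3.58.1 in R 4.3.3 (linear model, empirical Bayes, two-sided), with Benjamini-Hochberg adjustment over 21893 genes. Background was the 95th percentile of 96 ERCC probes of an array, assuming none were added. Spike-in scaling used 7 of 10 E1A probes above background on all arrays. The fit was tested on simulated data. The number of arrays limits the precision, and the labels name no batch.

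Members and lists were chosen with earlier results of these data known. Genes named with values were, by rule, those called with a change of at least 1, all members outside the Dnaj families, the 4 Dnaj genes with the smallest p in each direction, the 2 genes with the smallest p in each direction of each partner list, and Hyou1, Bag3, Stip1, Fkbp4, Serpinh1 and Cryab. Other genes were named after their values were seen. Alternatives covered the scaling, the probe standing for a gene, a background filter, variance and array weighting, a rank test, Xist as a covariate, the replicate number as a block and leaving out arrays. Promoter counts over any listed promoter of a gene were added after the data were seen.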

Additional observations from a re-analysis of the deposited data

Results flagged for a closer look

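In 160 groups, 80 genes in 2 genotypes, 6 held a sample far from the others, where chance gives about 1 in 20. Each lay on a different array. Hspa1l stood at a level of 7.29 in TH-MYCN+/+ replicate 3, against 2.45 to 3.59 in the other TH-MYCN+/+ samples. Dnajc7 stood at 11.48 in wild-type replicate 2, against 12.86 to 13.59. Hspd1 stood at 14.44 in TH-MYCN+/+ replicate 4, against 14.09 to 14.19. Hspb9 stood at 4.64 in TH-MYCN+/+ replicate 2, against 3.85 to 4.11, and Dnajc25, not called, at 7.77 in wild-type replicate 5, against 7.16 to 7.41. Dnajb13 stood at 2.38 in wild-type replicate 4, against 0.89 to 1.12, all below background.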

How the results depend on the processing

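Leaving out each array in turn gave 14 to 18 chaperone genes higher and 34 to 38 lower, and over all genes 3784 to 4143 higher and 7147 to 7685 lower. Without the 4 arrays that stood apart, an alternative chosen after seeing the data, 14 rose and 35 fell, and Dnajb7, Dnajc11, Dnajc17, Dnajc5, Dnajc7, Dnajc8 and Hsph1 lost their call, while Tcp1 (0.51, adjusted p = 0.0255) and Hspe1 (0.17, adjusted p = 0.0477) gained one. Counts also moved with the scaling, and the cause was not tested. Median centring left 6 chaperone genes higher. Chaperone genes lower numbered 7 with spike-in scaling and 9 as deposited, and all genes lower 1579 and 2746. With a change of at least 1 also required, 1 was higher and 11 lower, and over all genes 1741 and 3293. Signs turned, none with a call, with spike-in scaling for Dnaja1 (0.12), Dnajb9 (0.12), Dnajc10 (0.17), Dnajc13 (0.20), Dnajc14 (0.13), Dnajc18 (0.27), Dnajc3 (0.049), Dnajc30 (0.17), Hsp90aa1 (0.32), Hspa12b (0.013), Hspa13 (0.0074), Hspb6 (0.28) and Hsph1 (0.078), and as deposited for Dnajc10 (0.014), Dnajc13 (0.042), Dnajc18 (0.11), Dnajc30 (0.014), Hsp90aa1 (0.16) and Hspb6 (0.12). Dnajc5g, below background, was called lower after median centring (-0.44). Hspb11 turned with the mean of all probes (0.092) and with the probe of largest variance (0.78, a dim probe then called higher), Dnajb5 with the latter (-0.089), and the ratio of Hspd1 to Hspe1 with both (-0.082 and -0.86), where the construction uses other probes. Replicate numbers were entered as a block, which left 13 chaperone genes higher and 34 lower (3674 and 6863 over all genes). Deviations of samples with the same number correlated at -0.13 to 0.05. Samples with different numbers were not compared in this way, so whether the numbers pair the samples was not settled. Signal near background limits Hspb3, Hspb7, Hspa1l, Dnajb7 and Dnajc22.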
